A study of Caenorhabditis elegans with 2 samples.

Results

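The ceh genes, named for C. elegans homeobox, were described here for regions bound by the epidermal transcription factor ELT-3. They were taken as all protein-coding genes whose Ensembl WBcel235 name starts with ceh-, without ceh-16, which gave 62 of 19973 coding genes on the nuclear chromosomes. ELT-3, a GATA-type zinc-finger protein, was mapped by ChIP-seq, the sequencing of DNA recovered with a chromatin protein, in whole mixed-sex L1 larvae, the stage that hatches from the egg. Both libraries, biological replicates 1 and 3, came from strain OP75, genotype unc-119(ed3) III; wgIs75, which stably carries ELT-3 with a C-terminal GFP-FLAG tag, a tag that the labels describe for replicate 3. The labels give no second genotype, stage or untagged strain, so no difference between groups was tested. What is bound is therefore tagged ELT-3 made from a transgene, whether the antibody was directed at GFP or at ELT-3 is unclear from the labels, and in whole larvae binding in different cell types cannot be told apart.

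A homeobox encodes the homeodomain, a helix-turn-helix fold that binds short AT-rich DNA, and homeobox genes set the identity of body regions, tissues and single neuron types. In C. elegans the Hox genes and their TALE-class cofactors pattern the body axis, the ONECUT genes of the CUT class act across neurons, and POU, LIM, SINE and paired-like (PRD) genes specify particular neurons, muscles and glands. GATA factors such as ELT-3 bind the core GATA with preferred flanks, written here as WGATAR and meaning AGATAA or AGATAG, or either of them with T as the first base, on either strand.

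Sequences at 11 regions described below are shown first. Of the 5 thresholded peaks with a summit inside a ceh gene or within 5000 bp of its 5′ end, 4 are shown. With them stand 6 pooled regions below the threshold and 1 region of replicate 3. All 11 are set out so that summits with and without such a site can be read side by side. Each is given in build ce11 on the strand of the ceh gene, 5′ to 3′, in lower case with WGATAR matches in capitals (TTATCT and TTATCA are AGATAA and TGATAA on the other strand). The longer runs are centred on the summit, the single base where the peak caller put the top of a region. At ceh-38, at the 3′ end of ceh-13 and at ceh-92 only 30 bases around the site are given because the region overlaps transcribed ends. The remaining thresholded peak, inside ceh-8, is described below without its bases, and it has no WGATAR site within 50 bp of the summit.
ceh-38, +69 bp (chrII:6951567-6951596, plus strand): ccaaagaaatctAGATAGtatggagtattg
ceh-13, +2407 bp (chrIII:7558017-7558046, plus strand): aacaaTGATAAcgttacatgaaaatcttac
ceh-86, -3712 bp (chrII:2435734-2435834, minus strand): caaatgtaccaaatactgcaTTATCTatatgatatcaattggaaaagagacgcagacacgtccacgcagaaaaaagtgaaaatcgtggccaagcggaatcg
ceh-39, -2619 bp (chrX:1858741-1858841, minus strand): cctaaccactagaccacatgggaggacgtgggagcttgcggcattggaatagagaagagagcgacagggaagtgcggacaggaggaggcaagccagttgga
ceh-79, -166 bp (chrV:13301617-13301717, plus strand): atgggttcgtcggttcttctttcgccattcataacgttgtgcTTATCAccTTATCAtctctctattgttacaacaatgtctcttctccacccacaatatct
ceh-7, -787 bp (chrII:8704566-8704666, minus strand): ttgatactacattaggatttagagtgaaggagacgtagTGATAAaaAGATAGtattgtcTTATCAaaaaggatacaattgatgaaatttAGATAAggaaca
ceh-20, -807 bp (chrIII:6979027-6979127, plus strand): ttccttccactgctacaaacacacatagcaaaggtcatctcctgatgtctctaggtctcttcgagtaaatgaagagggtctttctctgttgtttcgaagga
ceh-13, -773 bp (chrIII:7554837-7554937, plus strand): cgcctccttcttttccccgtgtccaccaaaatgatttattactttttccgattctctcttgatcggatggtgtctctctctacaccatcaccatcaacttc
ceh-92, -919 bp (chrIII:11580702-11580731, plus strand): agtgtgctctatTGATAAaatattgatggc
ceh-43, -406 bp (chrIII:4450299-4450399, minus strand): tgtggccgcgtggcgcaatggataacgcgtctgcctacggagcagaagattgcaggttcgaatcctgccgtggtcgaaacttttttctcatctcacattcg
ceh-60, -209 bp, replicate 3 (chrX:6530305-6530405, minus strand): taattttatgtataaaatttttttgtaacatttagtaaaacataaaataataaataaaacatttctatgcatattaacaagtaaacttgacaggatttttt
Distances are from the 5′ end of the gene, negative upstream. The first 4 lie at thresholded peaks, the next 6 at pooled regions below the threshold, and the last at a region of replicate 3. Of the 5 thresholded summits, 3 have a single WGATAR site and 2, those at ceh-39 and ceh-8, have none. Within 50 bp of the pooled summits, 2 sites 8 bp apart stand at ceh-79, 4 at ceh-7 and 1 at ceh-92. None stands that near the pooled summits at ceh-20, upstream of ceh-13 or at ceh-43. The replicate 1 summit upstream of ceh-13, at -665 bp, lies inside that pooled region and has 1 site within 50 bp. The replicate 3 region at ceh-60 has none within 50 bp of its summit.

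The deposited lists used were 4. The thresholded list held 2916 nuclear peaks that passed the submitters' reproducibility threshold, and all of them were among the strongest regions of the pooled list when as many were taken as the thresholded list holds. The pooled list and that of replicate 1 held 30000 candidate regions each, and that of replicate 3 held 24854. These longer lists were deposited as peaks together with background, so a region in them is not a called peak. The signal, the peak caller's strength of a region, had medians of 9.74 in the pooled list, 8.42 in replicate 1 and 3.18 in replicate 3. The scales differ, so signals of different lists are set side by side by rank, with 1 the strongest. The files hold no read counts, so depth is unknown.

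One ceh gene, ceh-38, had a thresholded summit in its 5′ window, which ran from 1000 bp before the 5′ end to 500 bp after it. That is 1.61% of the 62 genes, with an exact binomial (Clopper-Pearson) 95% interval of 0.0408 to 8.66%, beside 9.40% of all coding genes. The interval ended below the share of all coding genes, but not under every alternative. The all-gene share came within it with a narrower window of 500 bp before to 250 bp after the 5′ end, at 7.26%, with summits given to the nearest 5′ end only, at 7.10%, with peaks above the median signal, at 5.06%, and with peaks found in both replicates' lists, at 5.47%, while the ceh count stayed at 1. The interval covers counting error only and treats genes as independent units, which they are not. Among the 36 homeobox genes with other names, also 1 had such a summit, alr-1, an aristaless-like gene, at 896 bp upstream with signal 38.1.

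Inside the gene, 2 ceh genes held a thresholded summit, ceh-38 and the PRD gene ceh-8. That is 3.23% with an interval of 0.393 to 11.2%, beside 3.57% of all coding genes, so the share inside genes was near the background. With as many of the strongest regions of a single replicate as the thresholded list holds, replicate 1 reached the inside of 1 ceh gene, 1.61% beside 3.57% of all coding genes, and replicate 3 reached 5, 8.06% beside 7.10%. The 5 were ceh-38, ceh-18, ceh-45, the Ems-like gene ceh-2 with signal 6.88 and rank 1153, and the mesodermal gene ceh-51 with signal 5.54 and rank 2737. Of the other homeobox genes, 1 held thresholded summits inside it, unc-62, which encodes a TALE-class Hox cofactor, with signals of 42.6 and 34.4. Neither unc-62 summit had a WGATAR site within 50 bp, and the alr-1 summit had 1.

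The low share in the 5′ windows was seen in the strongest regions and much less in the candidate lists. Pooled regions lay in the windows of 24 ceh genes, 38.7% with an interval of 26.6 to 51.9%, beside 41.6% of all coding genes. Replicate 3 regions lay in 24 windows as well, 38.7% beside 35.4% of all coding genes. Replicate 1 regions lay in 19 windows, 30.6% with an interval of 19.6 to 43.7%, beside 41.5%. All 3 intervals included the share of all coding genes. With the window of 500 bp before to 250 bp after the 5′ end, this changed for replicate 1. Its regions then lay in 10 windows, 16.1% with an interval of 8.02 to 27.7%, beside 31.2% of all coding genes. In that window the pool gave 19.4% beside 31.1%, and replicate 3 gave 25.8% beside 21.2%. No region of any list lay in the main windows of 27 ceh genes, 43.5% beside 39.9% of all coding genes.

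**Figure D1:**
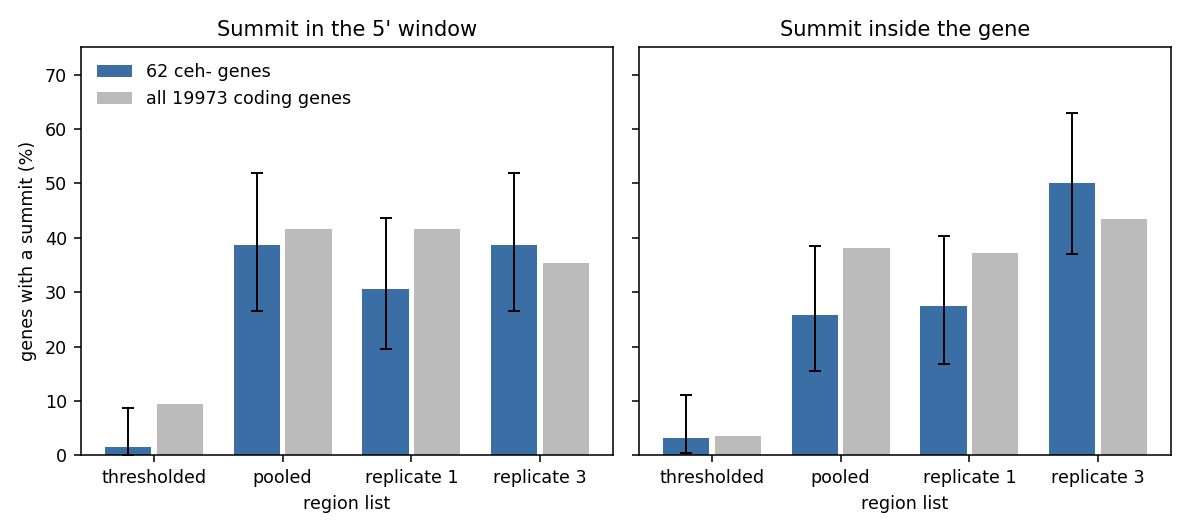
Share of genes (%, y axis) with a summit in the 5′ window (left) or inside the gene (right) in each of the 4 lists; blue bars are the 62 ceh genes with exact binomial 95% intervals, grey bars all 19973 coding genes. Of the 8 pairs of bars, thresholded summits in the window are the only pair whose interval, up to 8.66%, ends short of the grey bar, 9.40%, and inside genes the replicate 3 share is the highest at 50%.

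Where ceh genes had a pooled region in the window, its signal was lower than in coding genes as a whole. The strongest one per gene had a median of 9.56 over 24 ceh genes and of 14.4 over the 8306 coding genes with one, and the median best rank was 15505.5 for ceh genes and 8370 for all. In replicate 1 the medians were 9.02 for ceh genes and 13.2 for all, and in replicate 3 they were 3.32 and 3.43. The gap between ceh genes and all was thus seen in replicate 1 and in the pool, which includes replicate 1, and was small in replicate 3. When as many of the strongest regions of each replicate were taken as the thresholded list holds, those of replicate 1 reached the window of 1 ceh gene, 1.61% beside 9.42% of all coding genes, and those of replicate 3 reached 2, 3.23% beside 5.87%. The interval for replicate 1 ended at 8.66%, below its share of all coding genes. That for replicate 3, 0.393 to 11.2%, included its share.

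Inside genes the lists differed more. Pooled summits lay inside 16 ceh genes, 25.8% with an interval of 15.5 to 38.5%, beside 38.1% of all coding genes. Replicate 1 summits lay inside 17, 27.4% beside 37.2%, and replicate 3 summits inside 31, 50% with an interval of 37 to 63%, beside 43.5%. The ceh genes were longer, with a median of 2644.5 bp against 2027 bp, so the summits were also counted per 100 kb of gene. On that scale ceh genes held 14.8 replicate 1 summits against 27.5 over all coding genes, and 26.4 replicate 3 summits against 24.5. Without the 2 longest genes, ceh-100 and ceh-18, the ceh values were 12.2 in replicate 1 and 27.2 in replicate 3. The other homeobox genes held 26.9 in replicate 1 and 26.5 in replicate 3 and did not show the low replicate 1 value. The worms of the libraries came from different sources and their labels record fragmentation differently, and the part of either in this difference was not tested.

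The 5′ ends of ceh genes lay farther from thresholded peaks than those of coding genes in general at short range. A thresholded summit lay within 2000 bp of 1 ceh gene, 1.61% beside 14.2% of all coding genes. Within 5000 bp the count was 4, 6.45% beside 25%, within 10000 bp it was 18, 29.0% beside 39.2%, and within 20000 bp it was 32, 51.6% beside 58.7%. The median distance was 19550 bp for ceh genes, 14961 bp for all coding genes and 22081.5 bp for the other homeobox genes. Both homeobox lists thus had longer median distances than coding genes as a whole.

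**Figure D2:**
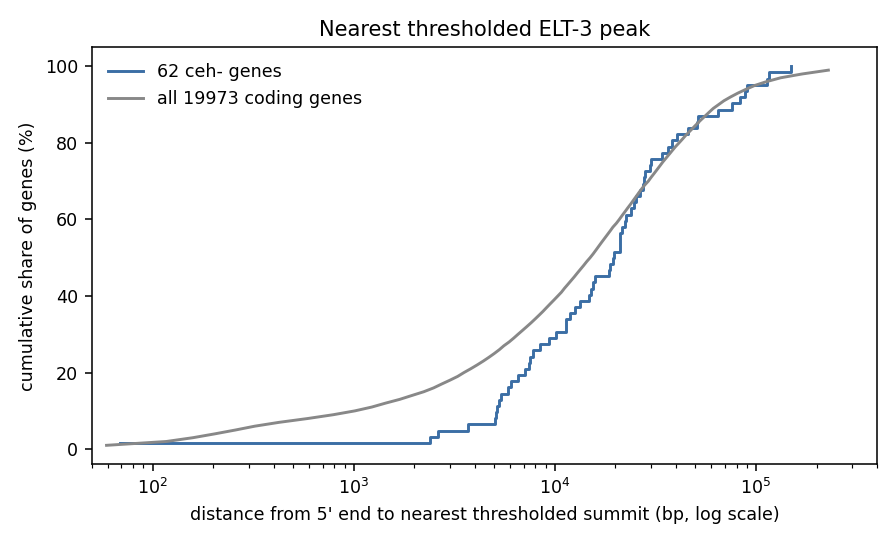
Cumulative share of genes (%, y axis) by distance from the 5′ end to the nearest thresholded summit (bp, log x axis), for the 62 ceh genes (blue steps) and all 19973 coding genes (grey). The blue line stays at 1.61% up to 2000 bp, where the grey line has reached 14.2%, and past 20000 bp the lines cross. The 75th percentile of distance is 29903 bp for ceh genes and 34390 bp for all, and the 90th is 74602 bp and 65163 bp.

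The spacing of genes also differed, and its part in the longer distances was not tested. The median free space upstream was 1788 bp for ceh genes and 937 bp for all, and another coding 5′ end lay within 1000 bp of 6 ceh genes, 9.68%, against 23.5% of all coding genes. Where no other 5′ end lay within 1000 bp, 0 of 56 ceh genes had a thresholded summit in the window, which allows a share of up to 5.36% when 3 counts are taken as the limit and up to 6.38% by the exact interval, beside 6.70% of 15282 such coding genes. Against coding genes with a name of 3 or 4 letters and a number, the background was higher, 11.7% of 10714 genes.

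By chromosome, X held 18 of the 62 ceh genes, 29.0%, against 13.7% of all coding genes. None of those 18 had a thresholded summit in the window or inside the gene, which allows a share of up to 18.5% by the exact interval, beside 9.15% of all coding genes on X with 1 in the window, so a difference there was not detectable. The 4 ceh genes on IV had no region of any list in their windows, as had 44.8% of all coding genes there, and with an exact upper bound of 60.2% for 0 of 4 nothing can be read from this.

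By class, thresholded window summits were found in 1 of 6 CUT genes and in 0 of 19 Antennapedia-like and NK genes, 0 of 8 PRD, 0 of 3 TALE, 0 of 3 SINE, 0 of 2 POU, 0 of 1 LIM and 0 of 20 genes not listed in a class. For the 19 Antennapedia-like and NK genes a count of 0 allows up to 17.6% by the exact interval. A region of some list lay in the window of all 3 TALE and both POU genes, as well as of the 1 LIM gene. No such region lay in the window of 9 of the 19 Antennapedia-like and NK genes, 5 of the 8 PRD genes, 2 of the 6 CUT genes, 1 of the 3 SINE genes and 10 of the 20 genes not listed, where the share of all coding genes without one was 39.9%. The classes are small, and differences between them were not tested.

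**Figure D3:**
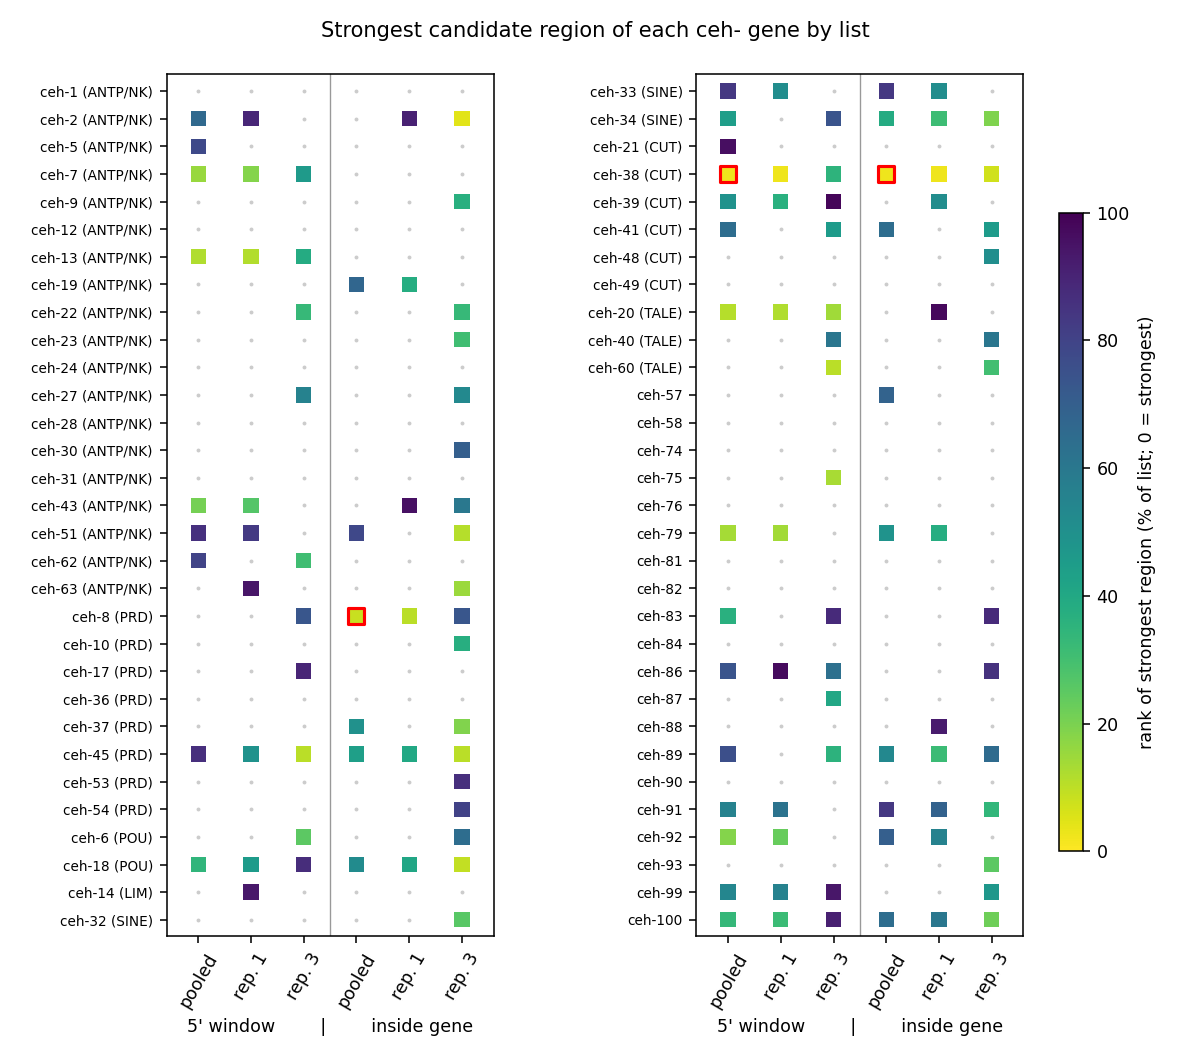
Each of the 62 ceh genes (rows, with homeodomain class where listed) by list and place (columns, pooled, replicate 1 and replicate 3, in the 5′ window and inside the gene); colour is the rank of the strongest region as % of its list, with yellow the strongest, red frames are thresholded peaks and grey dots mark no region. ceh-38 is framed in both places and ceh-8 inside the gene, and 14 genes have no region in any column.

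In the CUT class, ceh-38 is a ONECUT gene that acts with its relatives in neurons. Its thresholded peak, 350 bp wide as the median of that list, had its summit at position 6951595 of chromosome II, 69 bp downstream of the 5′ end in an annotated UTR exon. The pooled signal was 73.2, rank 757. Replicate 1 gave a region there of signal 70.1, rank 758, and replicate 3 gave signal 3.75, rank 8740, with a second overlapping region of rank 23780. The region was thus among the strongest in replicate 1 and far down the list in replicate 3. The AGATAG shown above starts 16 bp upstream of the summit. The gene malt-1, on the opposite strand, has its 5′ end 226 bp away, and the same summit lies in its window, so the peak cannot be given to 1 of the pair by position. Replicate 3 had another region in the coding part of ceh-38, at +2322 bp, with signal 6.18 and rank 1807, where the pooled region at +2338 bp had signal 6.44 and rank 27066.

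Also ONECUT, ceh-39 is one of the X-linked signals that count X chromosomes in sex determination. A thresholded summit of signal 35.5, rank 2786, lay 2619 bp upstream of ceh-39, nearer to the 5′ end of T26C11.8, and was named here after its value was seen, as was that at ceh-86. Replicate 1 ranked it 3071 with signal 31.3 and replicate 3 ranked it 2238 with signal 5.84, so both libraries placed it at similar ranks. No WGATAR site lay within 50 bp. In the window of ceh-39 itself the pooled signal was 9.85, rank 14757.

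Among Hox genes and cofactors, ceh-13 is the labial-like Hox gene of the anterior body. Its thresholded summit, signal 41.9 and rank 2230, lay 26 bp past the 3′ end of the gene, 2407 bp from the 5′ end, and outside both the window and the gene. Replicate 1 ranked the region 2545 with signal 36.2 and replicate 3 ranked it 16963 with signal 2.67. Upstream, the pooled list had 3 regions within 4500 bp, at -773 bp with signal 29.5 and rank 3595, at -1717 bp with signal 18.5 and rank 6096, and at -2488 bp with signal 23 and rank 4754. The first of these, in the window, lay under the lowest nuclear thresholded signal of 34.2. Replicate 1 had signal 29.0 and rank 3403 in the window at -665 bp, and replicate 3 had regions at -111 bp with rank 9628 and at -791 bp with rank 23832. ceh-13 thus had several candidate regions on both sides and 1 thresholded peak, at its 3′ end.

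The TALE gene ceh-20 encodes a PBC-type partner of Hox proteins, the relative of Extradenticle and Pbx. It had the highest pooled signal below the threshold in any ceh window, 31.3 at -807 bp, rank 3319. Replicate 1 had signal 27.9 there, rank 3580, and replicate 3 had signal 5.11 at -741 bp, also rank 3583, so both libraries placed the region at nearly the same rank. Replicate 3 had a second region at -198 bp of signal 3.19, rank 12379. Its summit had 3 WGATAR sites within 50 bp, and the replicate 3 summit at -741 bp had none. The -log10 of the q-value at the pooled region was 3.86, the value that all thresholded peaks carry. The pooled region of ceh-13 at -773 bp, also below the threshold, carried it too. No WGATAR site lay within 50 bp of the pooled summit.

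Another PBC-type gene, ceh-60, which acts in intestinal vitellogenin expression, was 1 of the 2 ceh genes reached by the strongest replicate 3 regions in the window. Its region lay at -209 bp with signal 5.62 and rank 2594 and had no counterpart in the window in replicate 1 or in the pool. The bases shown above have a GC content of 15.8%.

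**Figure D4:**
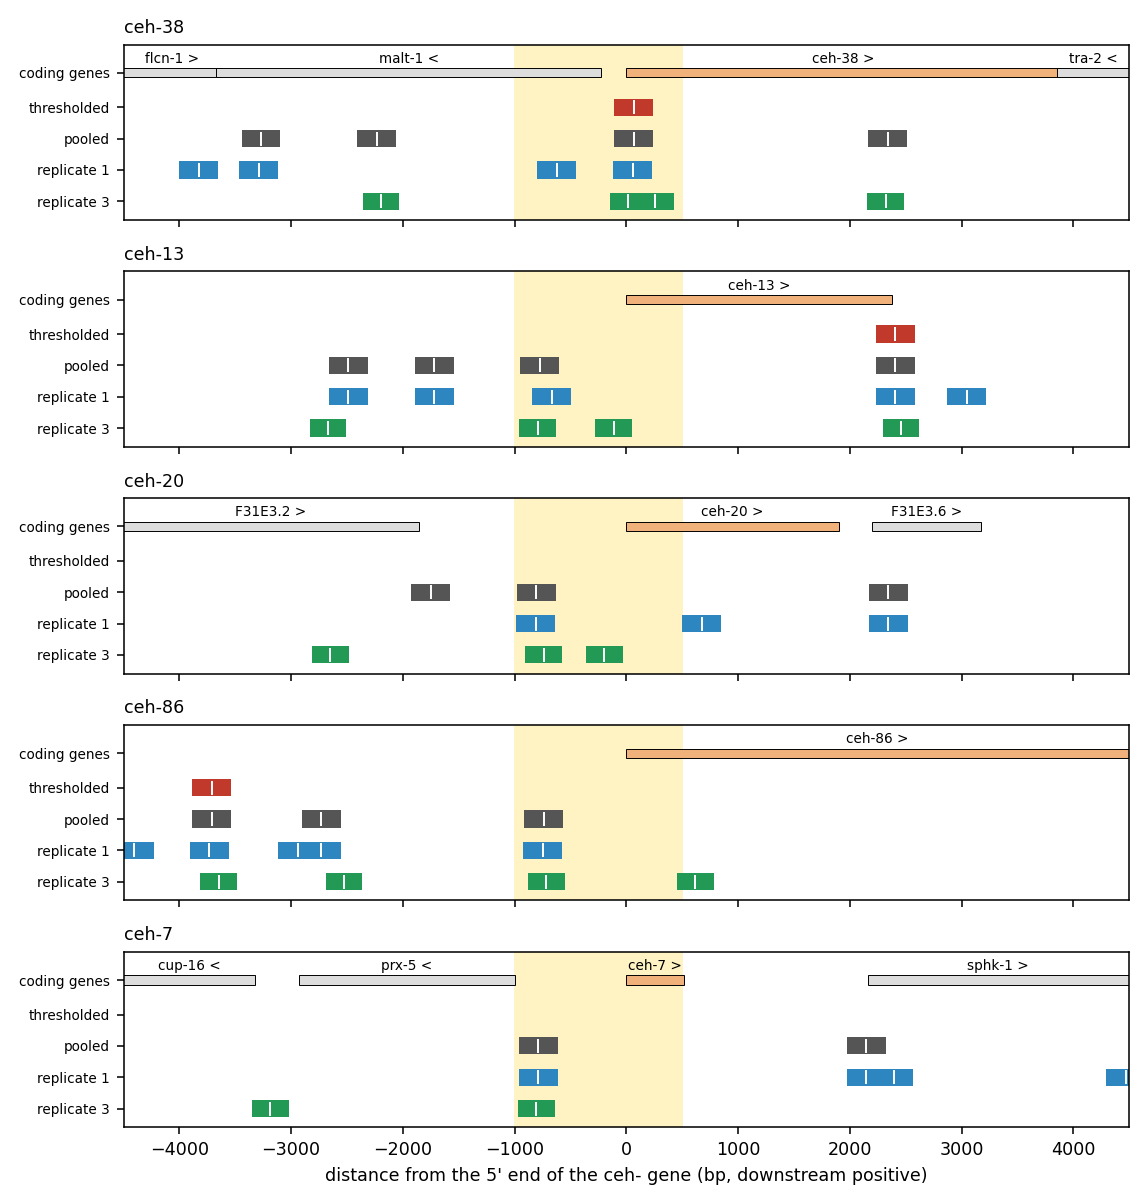
Regions of the 4 lists (rows of bars, with a white tick at each summit) and coding genes (top row, arrows give the strand relative to the ceh gene) by distance from the 5′ end of ceh-38, ceh-13, ceh-20, ceh-86 and ceh-7 (bp, x axis); yellow shading is the 5′ window. The thresholded bar stands at +69 bp at ceh-38, at +2407 bp at ceh-13 and at -3712 bp at ceh-86, and none is drawn at ceh-20 or ceh-7.

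Of the remaining Antennapedia-like and NK genes, ceh-7 had a pooled region at -787 bp with signal 23.3 and rank 4681. Replicate 1 had signal 18.5, rank 5596, and replicate 3 had signal 3.32, rank 11389, at -807 bp. The 5′ end of prx-5, which encodes a peroxisomal import receptor and lies on the other strand, was nearer than that of ceh-7, with the summit at -208 bp from it. This summit had 4 WGATAR sites within 50 bp, the most of the pooled summits in ceh windows.

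The Distal-less-like gene ceh-43 acts in the anterior epidermis and in dopaminergic neurons, and was thus a member with a known role in the tissue of ELT-3. Its pooled region at -406 bp had signal 18.2 and rank 6228, and the replicate 1 region, with the same summit, had signal 13.4 and rank 8064. Replicate 3 had none in the window. The summit lies inside an annotated tRNA gene, WBGene00014267, whose sequence is part of the run shown above, and no WGATAR site lay within 50 bp.

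In the PRD class, ceh-8 is a relative of vertebrate Rax. Its thresholded summit had signal 37.9 and rank 2550 and lay in a UTR exon 147 bp before the 3′ end of the gene, 5296 bp from its 5′ end. It stood at -689 bp from the 5′ end of the collagen gene col-63 and thus in the window of col-63. Replicate 1 ranked the region 3111 with signal 31.1, and replicate 3 had none there, so the peak rested on 1 library's list and the pool. The goosecoid-like gene ceh-45 was the other gene reached by the strongest replicate 3 regions, in an intron at +333 bp with signal 5.64 and rank 2543. Replicate 1 had a region in the same window at -565 bp, signal 8.53 and rank 14733, that did not overlap it.

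In the POU and SINE classes no thresholded peak was found, and the best ranks were those of replicate 3 regions except at ceh-33. ceh-18, which acts in gonadal sheath cells that signal to oocytes, had pooled signal 12.3 at -214 bp, rank 10371, and replicate 1 signal 9.02, rank 13659. Replicate 3 had regions of rank 21668 and 22758 in the window that did not overlap that of replicate 1, and a stronger one in an intron at +3512 bp with signal 5.82 and rank 2274. ceh-34, a SINE-class gene of pharyngeal neurons, had its strongest pooled region in an intron at +1178 bp, signal 11.5 and rank 11610, with a replicate 1 region at +1054 bp of signal 11.8, rank 9395, and nearby a replicate 3 region at +1201 bp of signal 3.12, rank 12863. The strongest replicate 3 region of ceh-34 lay in an intron at +3614 bp, with signal 4.65 and rank 4817. Of the other members of these classes, named after their values were seen, the excretory-cell POU gene ceh-6 had a replicate 3 region at -420 bp with signal 4.25 and rank 6287, and the SINE gene ceh-32 had 1 at +3366 bp with signal 4.20 and rank 6471.

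Of the genes not listed in a class, ceh-86 had a thresholded summit at -3712 bp with signal 40.5 and rank 2338, and its 5′ end was the nearest coding one. Replicate 1 ranked it 2576 with signal 35.9 and replicate 3 ranked it 4034 with signal 4.93. A region of replicate 3 at -2528 bp, signal 7.14 and rank 1008, was stronger there, while the pooled region at -2731 bp had rank 9377. The order of the regions upstream of ceh-86 thus differed between the libraries. ceh-79 had pooled signal 26.6 at -166 bp, rank 4035, and replicate 1 signal 24.5 at the same summit, rank 4158, and no replicate 3 region in the window. ceh-92 had pooled signal 20.1 at -919 bp, rank 5530, and replicate 1 signal 15.1, rank 6978, nearer to the 5′ end of Y66D12A.7. ceh-100 had pooled signal 12.6 at -805 bp, rank 10061, in a UTR exon of lips-15, and ceh-83 had pooled signal 11.9 at -25 bp, rank 10966. Replicate 1 had no region in the window of ceh-83 or inside it. The replicate 3 region of ceh-83, at +326 bp with rank 21851, did not overlap the pooled one.

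The libraries were then compared over all members. Both had a region in the window of 10 ceh genes, 16.1% beside 19.1% of all coding genes. Replicate 1 without replicate 3 had one in 9, 14.5% beside 22.4%, and replicate 3 without replicate 1 in 14, 22.6% beside 16.3%. In all, 35 ceh genes had a region in the window in at least 1 list. The other 27, 43.5%, had none, beside 39.9% of all coding genes. The regions of both libraries overlapped by at least 1 bp in the windows of 8 ceh genes, ceh-7, ceh-13, ceh-20, ceh-38, ceh-39, ceh-86, ceh-99 and ceh-100, which is 12.9% with an interval of 5.74 to 23.9%, beside 13.8% of all coding genes. That share was near the background. The best overlapping replicate 3 region ranked 3583 at ceh-20, 8740 at ceh-38, 11389 at ceh-7 and 15756 at ceh-86. At ceh-100, ceh-99, ceh-13 and ceh-39 it ranked 22682, 23327, 23832 and 24489, near the end of a list of 24854. The regions at ceh-7, ceh-38, ceh-99 and ceh-100 also lay in the window of another coding gene. Inside genes, both libraries had a summit in 10 ceh genes, 16.1% beside 23.4%, and replicate 1 without replicate 3 in 7, 11.3% beside 13.8%. Replicate 3 without replicate 1 had a summit inside 21 ceh genes, 33.9% with an interval of 22.3 to 47%, beside 20% of all coding genes, so that interval began above the background. The 33.9% is 1 of many shares given here, with no correction for their number. In the other homeobox genes this share was 27.8%, 10 of 36. Gene length, longer in ceh genes, enters these shares. Per 100 kb of gene, ceh genes held 26.4 replicate 3 summits against 24.5 over all coding genes. Members without any region in the window or the gene numbered 14, 22.6% beside 24.5% of all coding genes, and those with a listed class were ceh-1, ceh-12, ceh-24, ceh-28, ceh-31, ceh-36 and ceh-49.

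The 2 thresholded summits in windows of or inside ceh genes had a WGATAR site within 50 bp in 1 case, ceh-38, beside 34.8% of the 2914 other nuclear thresholded summits, and 21% of equally long windows that lay 500 bp from those summits. At ceh-38 both windows 500 bp away also held a site, and of the 4 such windows of both ceh summits 2 did. Pooled summits in ceh windows had a site in 9 of 28 cases, 32.1% with an interval of 15.9 to 52.4%, against 12.5% of their flanking windows. Over all coding genes the pooled share was 24.4%, with 19.7% in the flanks. In replicate 3 the share at ceh windows was 28.6%, with 21.4% in the flanks, and over all coding genes 21.8%. In replicate 1 it was 28%, with an interval of 12.1 to 49.4%, 10% in the flanks and 24.5% over all coding genes. All 3 intervals of the ceh shares included the shares of all coding genes, so no difference from them was detectable with so few summits. The pooled and replicate 1 intervals began above the shares of their own flanks, and that of replicate 3, 13.2 to 48.7%, included its flank share. Summits and flanks were not compared by a test.

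The promoters of ceh genes, taken as 250 bp before the 5′ end and 50 bp after it, held WGATAR in 33 of 62 cases, 53.2%, beside 54.6% of all coding genes. GATAAG, which overlaps a WGATAR site that ends in TAA where a G follows it, was found in 16.1% of ceh promoters and 16.8% of all. GAGAGA was found in 29.0% and 21.8%, and TAATTA, a letter string of homeodomain sites, in 12.9% and 15.6%, all on both strands. Over the whole window the median number of WGATAR sites was 4 for ceh genes and 4 for all coding genes. The median number of sites was thus equal, and a match is a description of the sequence and not a bound site.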

How the data were processed

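ChIP-seq of GFP-tagged ELT-3 was deposited as lists of regions for replicate 1, replicate 3, their pool and a thresholded list, in build ce11, per the labels and the deposited manifest. Which aligner and caller were used is not given in the sources used here. In each list, the signal column, as deposited, is the peak caller's strength of a region and the deposited −log10 column is −log10 of its q-value, which was constant in the thresholded list. The lists hold no read counts, so depth is unknown, and intervals cover counting error only.

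Gene models were those of Ensembl release 115 (WBcel235, identical to ce11), with sequence from the RefSeq genome of that assembly. Every region ended within its chromosome. Summits were the deposited start plus the summit offset, and 1 summit could be assigned to more than 1 gene. The 24 mitochondrial thresholded peaks were left out. Homeodomain classes and the 36 other homeobox genes came from hand-written lists. The members, lists and alternatives were chosen with earlier results of these data known. Named were members with a thresholded summit in the window or gene and the 10 others of highest pooled signal. Named too were members reached in the window by the strongest replicate 3 regions, as many as the thresholded list holds. Members of a listed class with no region, and other homeobox genes with a thresholded summit, were also named. Added after their values were seen were ceh-2, ceh-6, ceh-32, ceh-33, ceh-39, ceh-51 and ceh-86. So were members listed as sharing regions between libraries and the further regions given for ceh-13, ceh-18, ceh-34, ceh-38 and ceh-86. Alternatives were other windows, whole-peak overlap, all transcripts, the nearest gene alone, stronger regions, each replicate alone, and isolated genes. Shares were set beside those of all coding genes with no test. Computations ran in Python 3.11.15 (numpy 2.4.6; figures, matplotlib 3.10.9; tables, pandas 2.3.3; intervals, scipy 1.17.1), and the assignment of summits to genes and the motif search were tested on simulated data.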

Additional observations from a re-analysis of the deposited data

How the results depend on the processing

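The count of 1 ceh gene with a thresholded summit in the window held with windows of 500 bp upstream to 250 bp downstream and of 2000 bp upstream to 500 bp downstream, any annotated transcript, the nearest 5′ end only, whole-peak overlap, peaks above the median signal and peaks found in the lists of both replicates, where the shares of all coding genes ran from 5.06 to 12.4%. To leave out a replicate, the strongest regions of the other were taken in place of thresholded peaks, as many as the thresholded list holds. Without replicate 1 the count was then 2, ceh-45 and ceh-60 and not ceh-38 (3.23% beside 5.87% of all coding genes). Without replicate 3 it was 1, ceh-38 (1.61% beside 9.42%). Genes with no other coding 5′ end within 1000 bp, an alternative chosen after seeing the data, gave 0, as ceh-38 has such a neighbour. Inside genes the count of 2 became 3 by whole-peak overlap (4.84% beside 6.62% of all coding genes), 1 for peaks above the median signal (1.61% beside 1.87%), 1 for peaks found in both replicates' lists (beside 2.23%), 5 without replicate 1 (8.06% beside 7.10%) and 1 without replicate 3 (beside 3.57%). The window of 500 bp upstream to 250 bp downstream gave 12 ceh genes in the pooled list (19.4% beside 31.1%), 10 in replicate 1 (16.1% beside 31.2%) and 16 in replicate 3 (25.8% beside 21.2%), and regions above the median signal of a list gave 12 in the pool (19.4% beside 28.6%), 11 in replicate 1 (17.7% beside 28.9%) and 13 in replicate 3 (21% beside 20.3%). The share of thresholded ceh summits with a GATA site, 50% of 2, became 0% for GATAAG. Among the strongest regions of a single replicate, taken as above, it was 0% of 6 without replicate 1 and 100% of 1 without replicate 3. No paired analysis was possible because the labels give 1 group and no contrast. Depth is unknown, and 2 libraries and 62 genes limit what can be seen.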
